A study of Mus musculus with 10 samples.

Results

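The genes described here encode the nuclear subunits and assembly factors of respiratory complex I, measured in mouse peritoneal cavity macrophages. Members were the rows of the count table whose Ensembl identifier maps to a protein-coding symbol that starts with Nduf. There were 46 members among 22165 rows, of which 38 were subunits by name and 8 were assembly factors (Ndufaf). They lie on 17 chromosomes, with 2 on X. The filter on low counts left 45 members: 37 subunits and all 8 assembly factors. The member left out, Ndufa4l2, had 1 read in 1 of the 10 libraries.

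Macrophages came from C57BL/6 mice with LysM-Cre and a floxed allele (knockout, KO) or with the floxed allele alone (wild type, WT), after IL-4 complexed to an anti-IL-4 antibody or after saline (basal). The 4 groups were KO after IL-4 (3 libraries), WT after IL-4 (3 libraries), KO basal (2 libraries) and WT basal (2 libraries). Cells were lavaged 36 hours after injection with 5 ml of PBS and sorted on CD64, ICAM-2 and CD115, and polyadenylated RNA was sequenced. The labels give no ages. LysM-Cre is expressed from the Lyz2 locus in myeloid cells, so a genotype contrast sets Cre carriers against mice that lack Cre. KO is the genotype on the label and not a measured loss: LysM-Cre can leave an allele intact in some cells, and how complete the deletion was in the KO libraries, the basal ones included, is not reported here. Nothing in the labels tells whether a replicate was its own animal, and the p-values reflect no more than the variation among these libraries, which may be technical. In sorted bulk samples, fewer cells of a type and less RNA per cell cannot be told apart.

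Complex I oxidizes NADH, passes the electrons to ubiquinone and pumps protons across the inner mitochondrial membrane. The N module of its matrix arm binds NADH, the Q module of the same arm reduces ubiquinone, and the proximal and distal parts of the membrane arm hold the proton pumps, which are encoded in mitochondrial DNA. Around the core subunits, which have bacterial homologues, sit accessory subunits that stabilize the complex, and the Ndufaf proteins help to build it without remaining in it. In macrophages, complex I and the switch between respiration and glycolysis are studied for their part in activation states.

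The 4 promoter windows below are examples. Of these genes, 3 were called in the results below and have a motif match. The called genes Ndufa6 and Ndufaf8 also have a match and are not shown. Ndufa10 is a member that passed no test, chosen after its values were seen. For the called genes Ndufb9, Ndufb10 and Ndufa4 no motif match was found, and they are not shown. Each runs from 250 bases before to 50 bases after the RefSeq transcription start (GRCm38.p6, 300 bases, 5′ to 3′ on the gene's strand), and capitals mark a motif match. The motif is YY1 (AAGATGGC) in Ndufs4, NRF1 (GCGCA, any base, then GCGC) in Ndufa5 and GABPA (CCGGAAG) in Ndufb7, and no motif searched was found in the Ndufa10 window.
Ndufs4 (chr13:114388045-114388344, minus strand): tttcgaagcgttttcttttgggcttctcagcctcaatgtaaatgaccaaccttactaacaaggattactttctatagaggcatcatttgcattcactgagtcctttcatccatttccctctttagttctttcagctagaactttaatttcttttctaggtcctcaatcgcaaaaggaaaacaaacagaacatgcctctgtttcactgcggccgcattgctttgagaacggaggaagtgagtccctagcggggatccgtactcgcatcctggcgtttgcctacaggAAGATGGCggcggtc
Ndufa5 (chr6:24527477-24527776, minus strand): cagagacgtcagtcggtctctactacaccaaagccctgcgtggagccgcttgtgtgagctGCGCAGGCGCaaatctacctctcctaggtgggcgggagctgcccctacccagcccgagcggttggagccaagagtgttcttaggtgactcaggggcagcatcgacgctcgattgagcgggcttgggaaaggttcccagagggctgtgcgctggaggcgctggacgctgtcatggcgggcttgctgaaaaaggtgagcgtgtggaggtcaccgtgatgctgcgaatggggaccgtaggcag
Ndufb7 (chr8:83566508-83566807, plus strand): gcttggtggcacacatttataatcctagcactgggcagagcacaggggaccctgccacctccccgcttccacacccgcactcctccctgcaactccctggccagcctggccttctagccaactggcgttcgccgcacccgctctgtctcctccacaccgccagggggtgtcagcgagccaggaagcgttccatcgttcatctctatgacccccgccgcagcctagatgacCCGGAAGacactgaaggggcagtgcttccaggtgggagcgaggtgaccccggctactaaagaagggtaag
Ndufa10 (chr1:92473709-92474008, minus strand): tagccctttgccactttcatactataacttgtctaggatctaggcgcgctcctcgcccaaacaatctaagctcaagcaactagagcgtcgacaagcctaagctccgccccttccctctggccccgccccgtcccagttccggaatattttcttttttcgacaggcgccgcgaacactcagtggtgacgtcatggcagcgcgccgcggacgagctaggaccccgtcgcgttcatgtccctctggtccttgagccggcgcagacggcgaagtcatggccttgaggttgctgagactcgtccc
The match begins at base 36 counted from the start in Ndufs4, at base -190 in Ndufa5 and at base -20 in Ndufb7. Windows were found by symbol for 40 of the 46 members, and 5 motifs were searched on both strands. The NRF1 letters were in 9 of 40 member windows (22.5%) and in 5.19% of 27025 gene windows of the same length. YY1 letters were in 8 member windows (20.0%) against 3.19% of all windows, and GABPA letters in 6 (15%) against 9.93%. The ERR letters AAGGTCA and the STAT6 letters (TTC, 4 bases of any kind, then GAA) were in 3 member windows each (7.5%), against 5.38% and 8.01% of all windows. Median GC content was 59.2% in member windows and 52.8% in all windows. A match describes letters in the window, not a bound site.

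Levels between genes are compared as CPM per kb of principal transcript, where CPM is the read count scaled to library size with TMM factors, as a mean over the 10 libraries with its SD. Ndufa4 was highest at 371.7 ± 129 CPM per kb. Its protein, first assigned to complex I, is now known as a subunit of cytochrome c oxidase. Ndufa1, a small subunit of the proximal membrane arm (275.9 ± 84.7 CPM per kb), and Ndufa6, an accessory subunit of the matrix arm (250.9 ± 109 CPM per kb), followed. At the low end of the tested members were Ndufb2, a subunit of the distal membrane arm (4.12 ± 0.622 CPM per kb), Ndufaf5 (5.55 ± 3.15 CPM per kb) and Ndufaf1 (5.88 ± 1.84 CPM per kb). The principal transcript of Ndufb2 is the longest among members, and reads of Ndufb2 can be split with a pseudogene copy and overlapping genes. The tested members spanned 90.3-fold around a median of 54.3 CPM per kb.

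By role, the median level was 64.6 CPM per kb for the 10 genes of the N module, 37.8 for the 6 of the Q module, 117 for the 9 of the proximal membrane arm and 65.8 for the 10 of the distal membrane arm. The 8 assembly factors had a median of 6.32 CPM per kb. The 30 accessory subunits had a median of 76.8 CPM per kb and the 7 core subunits 33.5 CPM per kb. Ndufa4 is counted by name among the accessory subunits, and among the 37 subunits, here and below. Core transcripts had a median length of 1623 bases and accessory transcripts one of 747.5 bases.

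**Figure D1:**
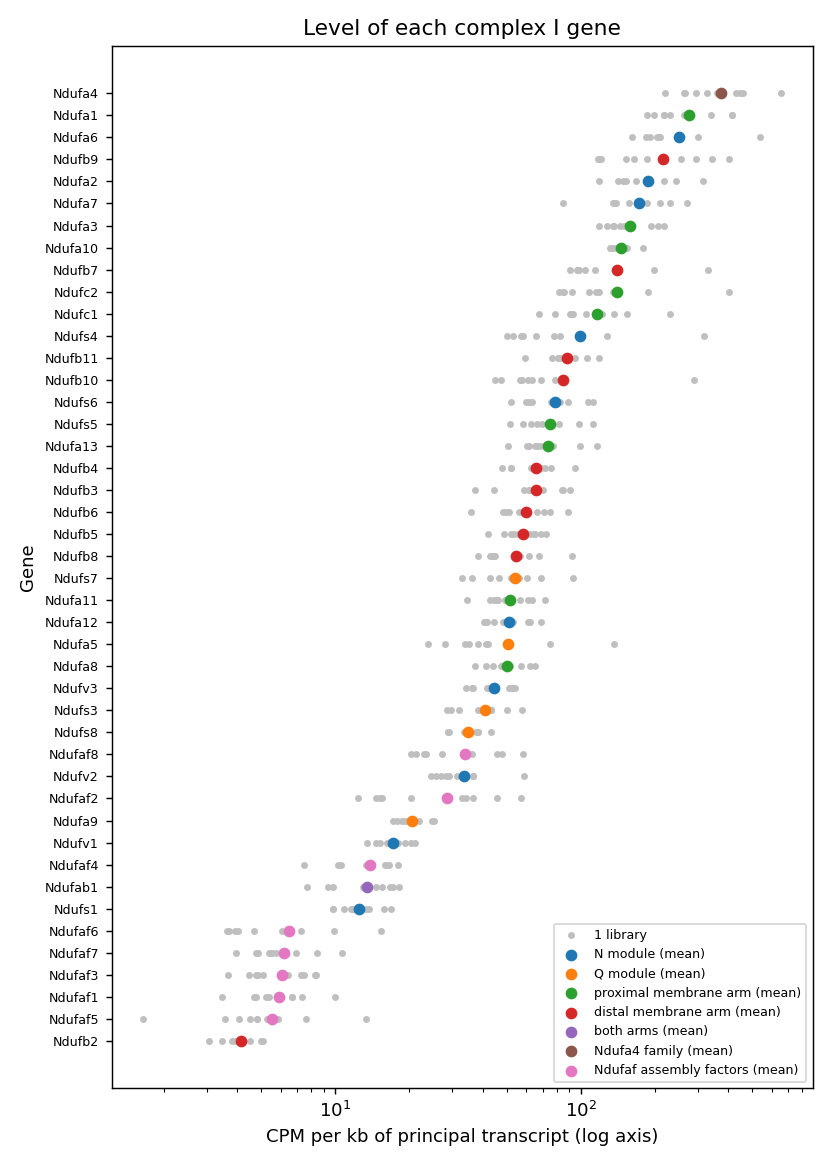
Level of 44 of the 45 tested members in CPM per kb of principal transcript on a log axis. Grey points are the 10 libraries and coloured points their mean, with colour for the role in the complex; Ndufa4 lies at the top at 371.7 CPM per kb and Ndufb2 at the bottom at 4.12 CPM per kb, with 5 of the 6 lowest means belonging to assembly factors.

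Depth was 8762403 to 15024073 counted reads in a library, and members made up 0.217% to 0.457% of them. Their summed level was 2812, 2755 and 2231 CPM in KO after IL-4, against 3132, 2535 and 2888 CPM in WT after IL-4, and 2826 and 2802 CPM in KO basal, against 3717 and 5001 CPM in WT basal. The WT basal libraries were the highest on this sum, and replicate 2 stood apart: 24 of the 45 members had their highest value there and 13 were over 1.5 times their level in WT basal replicate 1. KO IL-4 replicate 3 held the lowest value of 25 members. All 10 macrophage markers were detected in every group. Lyz2, the locus that carries Cre, had 2664 and 9675 CPM in KO basal, against 23600 and 21903 CPM in WT basal, and was the 1 macrophage marker called between the basal genotypes (log2 -1.88, adjusted p = 0.0249). The other 9 markers summed to 5233 and 5387 CPM in KO basal, against 7596 and 6397 CPM in WT basal, and to 4998 to 5372 CPM in KO after IL-4, against 5215 to 5354 CPM in WT after IL-4. Under basal conditions 6 of the 10 had a negative log2 fold change and 4 a positive one.

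Markers of other cells moved with the groups too. The 11 tested B cell markers all passed as higher in KO than WT basal libraries, where 303 of all 11614 genes tested did. These markers summed to 1671 to 2019 CPM in KO basal and 256 to 431 CPM in WT basal. After IL-4 they summed to 679 to 751 CPM in KO and 611 to 715 CPM in WT. None was at 0 in all libraries of a group. After IL-4 in KO, 10 of the 11 fell, where 408 of all 11614 genes tested did. Mast cell markers summed to 186 to 313 CPM in KO basal, 82.5 to 132 CPM in WT basal and at most 50.4 CPM in the IL-4 groups, where Ms4a2 was at 0 in every library. In edgeR, 4 of the 8 were called higher in KO than WT basal libraries, where 303 of all 11614 genes tested were. After IL-4, 6 were called lower in KO and 3 in WT, where 408 and 325 of all genes tested were. The sum of the 11 T and NK cell markers was 106 to 114 CPM in KO basal and at most 43.9 CPM elsewhere, with Klrb1c at 0 in WT basal. The 10 neutrophil markers summed to 130 to 186 CPM in KO after IL-4, 190 to 226 CPM in WT after IL-4, 179 to 260 CPM in KO basal and 254 to 358 CPM in WT basal, with the granule genes Camp, Ltf and Ngp at 0 in KO after IL-4 and in both basal groups. Of the 6 neutrophil markers tested, 2 fell in KO against WT after IL-4, where 55 of all 11614 genes tested did. After IL-4 in WT, 2 of these markers rose and 1 fell, where 379 and 325 of all genes tested did. Between the basal genotypes none passed in edgeR (2 at an unadjusted p under 0.05), and 5 of the 6 had a positive log2 fold change, with a median of 0.79. The part of these cells in the results below was not tested.

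**Figure D2:**
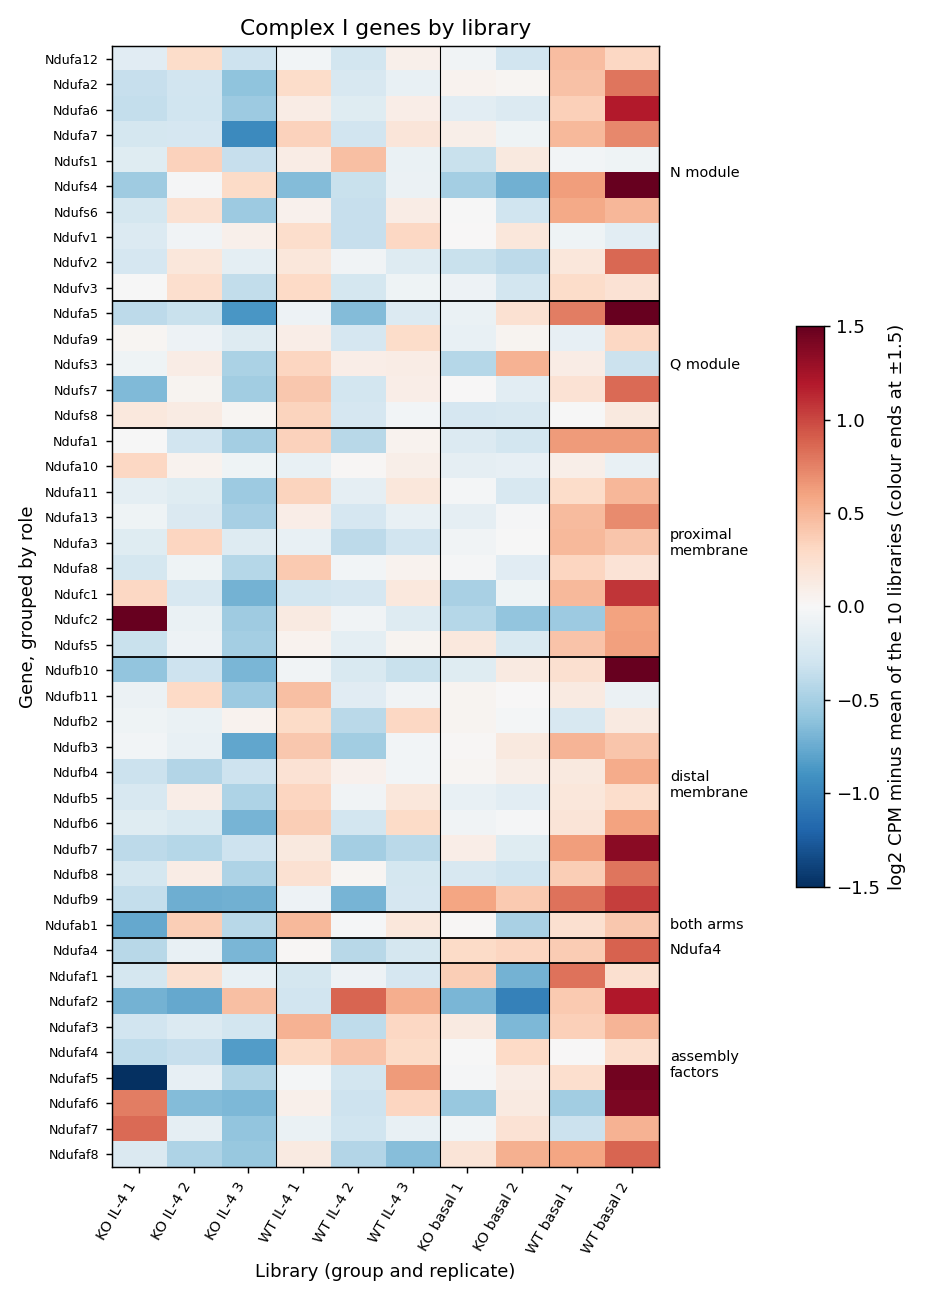
Heat map of 44 of the 45 tested members (rows, grouped by role) in the 10 libraries (columns), as log2 CPM minus the gene's mean over the libraries, with the colour scale ending at ±1.5. The WT basal columns at the right are the reddest, replicate 2 above all, and KO IL-4 replicate 3 is the bluest, with the lowest value for 25 of the 45 members.

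Under basal conditions, Ndufs4 and Ndufa6 were the members that fell in KO macrophages, and no member rose. Ndufs4 (ENSMUSG00000021764, chromosome 13, 114287795 to 114388258, mm10, GENCODE M21), an accessory subunit that completes the NADH-binding end of the matrix arm and whose loss in mice causes a Leigh-like encephalopathy, had 98.7 and 85.3 CPM in KO basal libraries, against 216.8 and 539.6 CPM in WT basal libraries. The groups did not overlap, and the WT libraries differed from each other 2.49-fold. The level was 4.11-fold lower in KO (log2 fold change -2.04 ± 0.38 (SE), adjusted p = 0.00705, edgeR quasi-likelihood test adjusted over all genes). Ndufa6 (ENSMUSG00000022450, chromosome 15, 82350140 to 82354322), an accessory subunit of the LYR-motif family that binds the mitochondrial acyl carrier protein, had 124.4 and 120.9 CPM in KO basal and 177.7 and 318.3 CPM in WT basal. It was 2.02-fold lower in KO (log2 fold change -1.02 ± 0.27 (SE), adjusted p = 0.0477), and both KO libraries were close together and below both WT libraries. Without WT basal replicate 2, neither kept its call (Ndufs4 log2 -1.24, adjusted p = 0.0748; Ndufa6 log2 -0.54, adjusted p = 0.480). Over all 17 alternatives the adjusted p of Ndufa6 lay at or below 0.480 and passed in 7.

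Of the 45 members, 2 were called lower (4.44%), where 1.53% of all 11614 genes tested were. At an unadjusted p under 0.05, 13 members were lower (28.9%) and 0 higher, where 8.92% of all genes were lower at that threshold. DESeq2 called 9 members lower, where it called 3.26% of all genes lower. Without WT basal replicate 2 the count called was 0, and without either KO basal replicate it was also 0. Without any 1 of the other 7 libraries it was between 1 and 7. Every KO library lay below every WT library for 33 members (73.3%), against 24.5% of all genes tested. Both KO libraries lay above both WT libraries for 1 of 45 members, Ndufv1, the NADH-binding core subunit, against 2751 of 11614 genes tested. The median log2 fold change of the 45 members was -0.54, against -0.02 for all genes, and 41 were negative.

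Beyond those calls, Ndufa5 (ENSMUSG00000023089, chromosome 6, 24518666 to 24528013), an accessory subunit of the Q module, had 36.0 and 45.2 CPM in KO basal, against 65.7 and 119.2 CPM in WT basal (log2 fold change -1.19 ± 0.33 (SE), adjusted p = 0.0533), just outside the threshold. WT basal replicate 2 was 1.81 times replicate 1 for Ndufa5, and its log2 fold change ran from -1.54 to -0.70 over the 17 alternatives. Among members named after their values were seen, Ndufb7 stood at 86.1 and 71.0 CPM in KO basal, against 124.4 and 205.2 CPM in WT basal (log2 fold change -1.07 ± 0.30 (SE), adjusted p = 0.0548), and Ndufb10 at 46.2 and 57.5 CPM in KO basal, against 61.8 and 211.4 CPM in WT basal (log2 fold change -1.40 ± 0.41 (SE), adjusted p = 0.0763). For Ndufb10, only 1 of the WT basal libraries was far above the KO libraries.

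**Figure D3:**
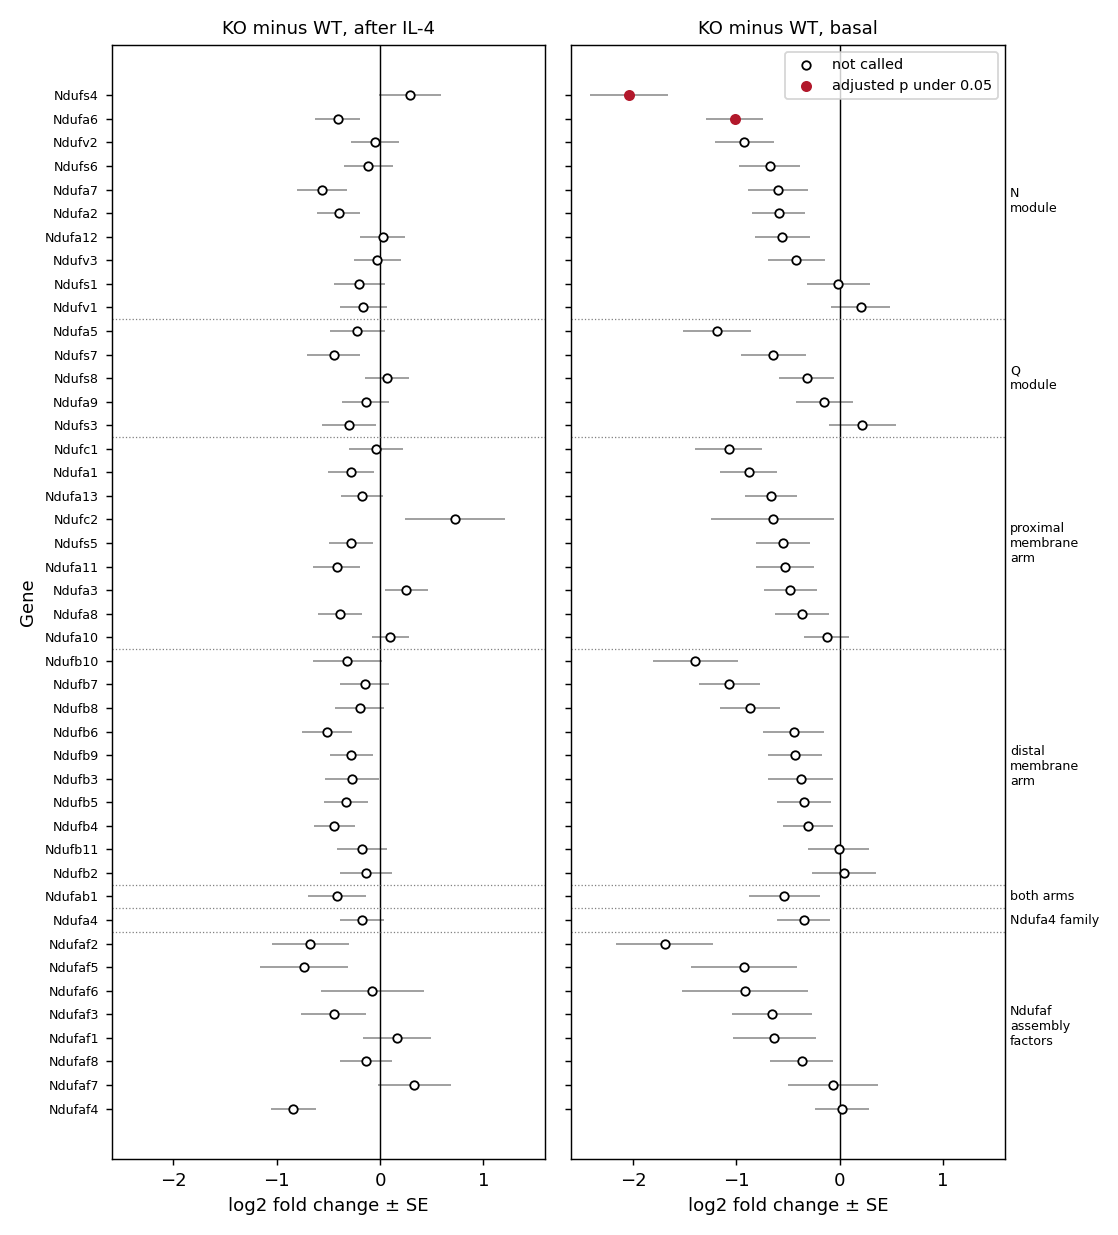
Log2 fold change of 44 of the 45 tested members, KO minus WT, after IL-4 (left) and basal (right), with bars for the SE and rows grouped by role. Red points passed an adjusted p of 0.05: none after IL-4, and Ndufs4 (-2.04) and Ndufa6 (-1.02) under basal conditions, where 40 of 44 points lie left of 0.

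By class, the accessory subunits, Ndufa4 included, had a median log2 fold change of -0.54 (29 of 30 negative) and the core subunits one of -0.01 (5 of 7 negative). Among core subunits, Ndufs1, which carries iron-sulfur clusters of the N module, stood at 26.2 and 36.5 CPM in KO basal, against 31.8 and 31.3 CPM in WT basal, and the groups overlapped. Ndufv2, the partner of Ndufv1, was the core subunit with the lowest fold change and did not pass (43.7 and 41.8 CPM in KO basal, against 61.9 and 99.9 CPM in WT basal; log2 fold change -0.92 ± 0.28 (SE), adjusted p = 0.0845). These core genes were picked after their values were seen. Medians by role were -0.59 for the N module, -0.23 for the Q module, -0.55 for the proximal membrane arm, -0.40 for the distal membrane arm and -0.64 for the assembly factors. A test of accessory against core subunits was not run.

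Transcript length moved with these values. The tested members had a median transcript of 983 bases, against 2986 bases for all genes tested, and 40 of the 45 lay in the shortest of 4 equal length classes of genes. All genes of that class had a median log2 fold change of -0.19 between KO and WT basal libraries, while genes of the longest class had one of 0.15. With each library's length trend removed, an alternative chosen after seeing the data, the median of the subunits was -0.20 in place of -0.53 and 1 member stayed called. The shortest class had medians of -0.15 for genotype after IL-4, -0.19 for IL-4 in WT and -0.16 for IL-4 in KO, so the members' own medians stand against these values as well. The part of length in the results was otherwise not tested.

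**Figure D4:**
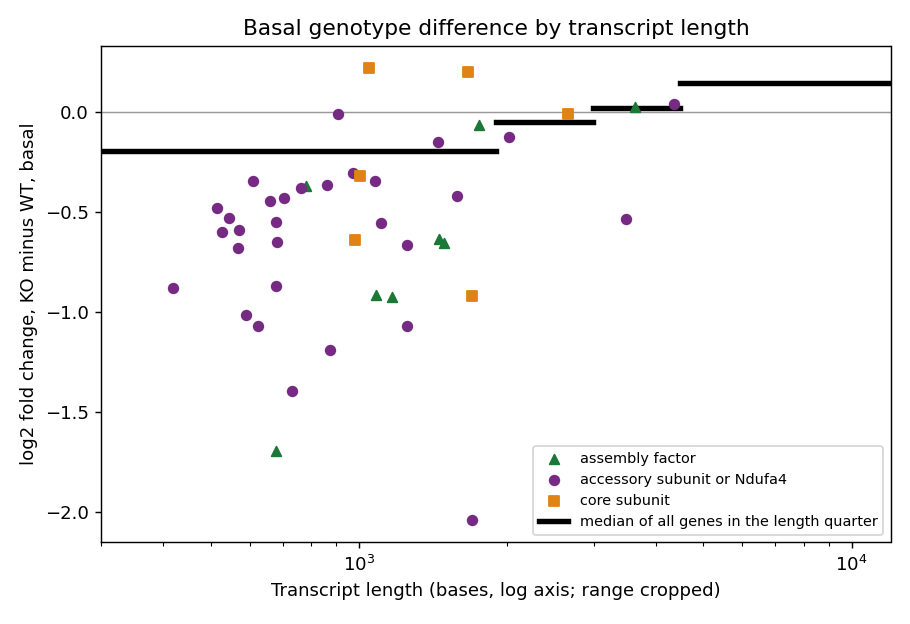
Log2 fold change between KO and WT basal libraries against the length of the principal transcript in bases (log axis, cropped) for 44 of the 45 tested members, by class. Black bars give the median of all genes tested in each of 4 length classes; they step up with length, and most members lie left of the end of the shortest class and below its median of -0.19.

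After IL-4, in edgeR no member differed between KO and WT libraries past the threshold (0 of 45, where 0.827% of all genes tested were called in either direction). At an unadjusted p under 0.05 there were 3 members, all lower in KO (6.67%), where 6.94% of all genes were lower at that threshold. DESeq2, the other count tool, called 1 member, Ndufaf4 (adjusted p = 0.0107, where all 17 alternatives spanned 0.0107 to 0.243). DESeq2 called 1.88% of the genes it tested lower in this contrast. Ndufaf4 (ENSMUSG00000028261, chromosome 4, 24898083 to 24905001), which acts with Ndufaf3 on early intermediates of the matrix arm, had 37.4, 38.3 and 27.2 CPM in KO after IL-4, against 59.3, 65.4 and 59.4 CPM in WT after IL-4. All 3 KO libraries lay below all 3 WT libraries, and the estimate was log2 fold change -0.84 ± 0.22 (SE), adjusted p = 0.0809 in edgeR.

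Ndufa7, an accessory subunit of the N module, had 72.5, 73.3 and 44.9 CPM in KO after IL-4, against 111.1, 71.6 and 98.5 CPM in WT after IL-4 (log2 fold change -0.56 ± 0.24 (SE), adjusted p = 0.299), with overlap between the groups. Ndufb4, of the distal membrane arm, had 50.4, 46.5 and 50.6 CPM in KO after IL-4, against 73.3, 66.0 and 60.9 CPM in WT after IL-4 (log2 fold change -0.44 ± 0.20 (SE), adjusted p = 0.332), with every KO library below every WT library. Both genes have pseudogene copies that could take some of their reads. In all, 6 members were lower in KO without overlap (13.3%), against 10.7% of all genes. The count higher without overlap was 0 of 45 members, against 1112 of 11614 genes tested.

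The median log2 fold change of the members after IL-4 was -0.20, against 0.02 for all genes, with 36 of 45 negative. All 10 members of the distal membrane arm were negative (median -0.27, range -0.51 to -0.13). With the length trend removed, the median of the 37 subunits was 0.0017, in place of -0.20. Ndufc2 of the membrane arm, chosen after its values were seen, had 1 library far above the others: it had 273.4, 78.8 and 58.2 CPM in KO after IL-4, against 92.8, 81.2 and 73.7 CPM in WT after IL-4 (log2 fold change 0.73 ± 0.48 (SE), adjusted p = 0.525). The high value was KO IL-4 replicate 1, the library in which the 7 mitochondrially encoded complex I transcripts also summed highest, at 19410 CPM against 5174 to 12002 CPM in the other 9 libraries. In that library mt-Nd2, mt-Nd4, mt-Nd4l and mt-Nd5 had their highest values. By contrast, mt-Nd1 (1275 CPM), mt-Nd3 (859 CPM) and mt-Nd6 (16.6 CPM) did not.

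In WT macrophages, IL-4 was accompanied by lower levels of 6 genes counted as subunits, 1 of them Ndufa4, and of 1 assembly factor. No member rose. Ndufb9 (ENSMUSG00000022354, chromosome 15, 58933756 to 58939488), a LYR-motif accessory subunit of the distal membrane arm, had 130.6, 85.2 and 116.2 CPM in WT after IL-4, against 242.4 and 282.1 CPM in WT basal. The groups were far apart and the level was 2.37-fold lower after IL-4 (log2 fold change -1.25 ± 0.23 (SE), adjusted p = 0.00558). Ndufb9 overlaps Gm49356 on the same strand, which can share its reads. Ndufa5 had 36.7, 24.5 and 33.4 CPM in WT after IL-4, against 65.7 and 119.2 CPM in WT basal, and was 2.94-fold lower (log2 fold change -1.55 ± 0.29 (SE), adjusted p = 0.00571). Ndufs4 had 90.0, 111.7 and 132.7 CPM after IL-4, against 216.8 and 539.6 CPM in WT basal, and was 3.39-fold lower (log2 fold change -1.76 ± 0.33 (SE), adjusted p = 0.00651). For Ndufa5 and Ndufs4, WT basal replicate 2 was the highest of all 10 libraries.

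Ndufb7 (ENSMUSG00000033938, chromosome 8, 83566671 to 83571626) and Ndufb10 (ENSMUSG00000040048, chromosome 17, 24722060 to 24724478), accessory subunits at the intermembrane face of the distal membrane arm, also fell. Ndufb7 had 89.0, 56.4 and 60.9 CPM in WT after IL-4, against 124.4 and 205.2 CPM in WT basal (log2 fold change -1.26 ± 0.26 (SE), adjusted p = 0.0105). Ndufb10 had 50.3, 44.8 and 41.6 CPM in WT after IL-4, against 61.8 and 211.4 CPM in WT basal (log2 fold change -1.58 ± 0.37 (SE), adjusted p = 0.02). WT basal replicate 2 was 3.42 times replicate 1 for Ndufb10. Ndufa4 (ENSMUSG00000029632, chromosome 6, 11900292 to 11907497) had 218.6, 161.9 and 179.6 CPM in WT after IL-4, against 280.0 and 398.1 CPM in WT basal (log2 fold change -0.86 ± 0.23 (SE), adjusted p = 0.0392). Ndufaf8 (ENSMUSG00000078572, chromosome 11, 120098928 to 120100705), the partner that stabilizes Ndufaf5, had 27.2, 18.3 and 15.9 CPM in WT after IL-4, against 37.2 and 45.4 CPM in WT basal (log2 fold change -1.01 ± 0.27 (SE), adjusted p = 0.0396). In both genes every IL-4 library lay below every basal library.

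The 7 calls are 15.6% of the members, where 2.8% of all genes tested were called lower. DESeq2 called 11 members lower, where it called 4.46% of all genes lower. Without WT basal replicate 2 only Ndufb9 kept its call (the count was 1), and Ndufb10 then stood at log2 -0.44 (adjusted p = 0.535), Ndufs4 at -0.96 (adjusted p = 0.131) and Ndufa5 at -1.06 (adjusted p = 0.105). Without that library Ndufb7 was at -0.86 (adjusted p = 0.160), Ndufa4 at -0.59 (adjusted p = 0.331) and Ndufaf8 at -0.87 (adjusted p = 0.221). Without WT IL-4 replicate 2 or replicate 3 the count was 3 in each case. Across all members, 21 were lower without overlap (46.7%), against 19.5% of all genes. Higher without overlap was 1 of 45 members, Ndufaf4, against 2410 of 11614 genes tested. The median log2 fold change was -0.46, against 0.00 for all genes, with 37 of 45 negative. Accessory subunits, Ndufa4 included, had a median of -0.52 and core subunits one of 0.13. This contrast shares the WT basal libraries with the basal genotype contrast, so the values of Ndufs4, Ndufa5, Ndufb7 and Ndufb10 in the 2 contrasts are not separate evidence.

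In KO macrophages, Ndufb9 was the single member that fell after IL-4. It had 107.9, 82.9 and 83.4 CPM in KO after IL-4, against 208.3 and 181.0 CPM in KO basal. Every IL-4 library lay below every basal library, and the level was 2.13-fold lower (log2 fold change -1.09 ± 0.23 (SE), adjusted p = 0.00934). Without KO basal replicate 1 the adjusted p was 0.0957, the highest over its 17 alternatives, and the count of calls was 0. Without KO IL-4 replicate 2 the count was 2. The KO contrast shares no library with the WT contrast, where Ndufb9 was 2.37-fold lower, and the difference between the 2 effects was log2 0.15 ± 0.33 (adjusted p = 0.886).

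Ndufa4 had 161.1, 200.04 and 134.6 CPM in KO after IL-4, against 262.7 and 270.8 CPM in KO basal (log2 fold change -0.69 ± 0.23 (SE), adjusted p = 0.0862). Ndufaf8 had 21.3, 17.9 and 16.7 CPM in KO after IL-4, against 28.2 and 35.8 CPM in KO basal (log2 fold change -0.78 ± 0.28 (SE), adjusted p = 0.101). Neither gene passed, although the groups did not overlap for either. The single call among 45 members is 2.22%, where 3.51% of all genes were called lower. Without overlap, 14 members were lower (31.1%), against 21.2% of all genes. In the other direction, 3 of 45 members were higher without overlap, against 2135 of 11614 genes tested. The contrast shares its basal libraries with the basal genotype contrast and its IL-4 libraries with the genotype contrast after IL-4. The median of the members was -0.05, with 28 of 45 negative, and that of the distal membrane arm was -0.33, with 9 of 10 negative. The subunit median was -0.09, and 0.075 with the length trend removed.

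**Figure D5:**
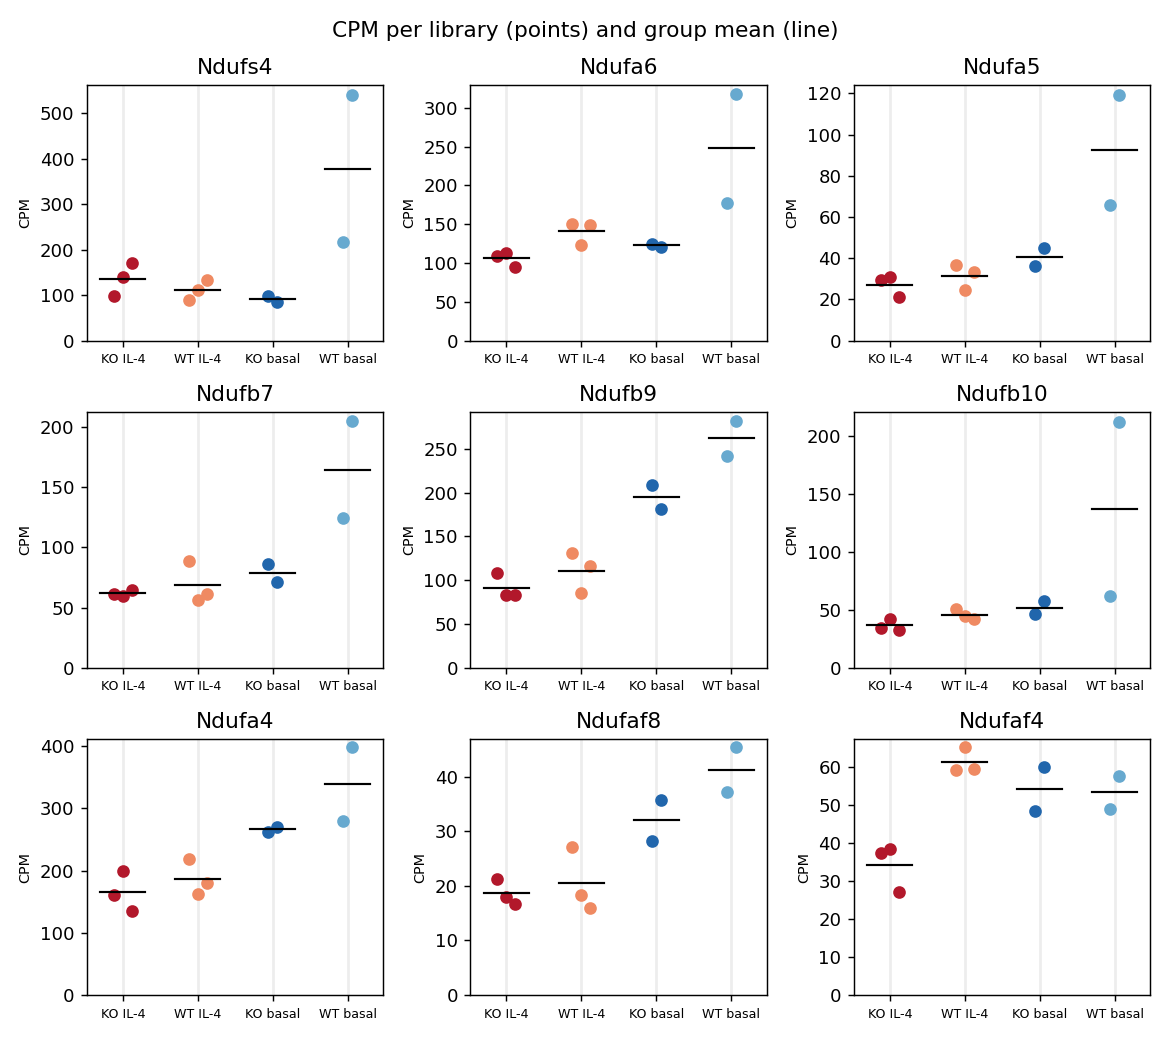
CPM in each library (points) and group mean (line) for the 7 members called for IL-4 in WT, with Ndufa6 and Ndufaf4, in the order KO IL-4, WT IL-4, KO basal, WT basal; each panel has its own axis, which starts at 0. Ndufb9, Ndufa4 and Ndufaf8 lie lower after IL-4 in both genotypes, Ndufs4 is high in WT basal libraries at 216.8 and 539.6 CPM, and Ndufaf4 is low in KO IL-4 libraries.

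The interaction (the effect of IL-4 in KO minus that in WT) passed for Ndufs4. Ndufs4 had 97.3, 139.5 and 171.4 CPM in KO after IL-4 and 98.7 and 85.3 CPM in KO basal (log2 fold change 0.56 ± 0.34 (SE), adjusted p = 0.344), while it fell in WT after IL-4 as given above. The difference between the effects was log2 2.33 ± 0.48 (adjusted p = 0.0160). After IL-4 the genotypes did not differ past the threshold (log2 fold change 0.29 ± 0.30 (SE), adjusted p = 0.71), and the KO and WT libraries overlapped. Without WT basal replicate 2 the interaction was log2 1.52 (adjusted p = 0.0737), and it also missed the threshold without KO basal replicate 1 (adjusted p = 0.0662), KO basal replicate 2 (0.0955) or WT IL-4 replicate 1 (0.0542).

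The single positive interaction among 45 members is 2.22%, against 1.02% of all genes tested. Without WT basal replicate 1 the count was 2. Ndufaf4 had the most negative interaction (log2 -0.87 ± 0.34, adjusted p = 0.222): it had 37.4, 38.3 and 27.2 CPM in KO after IL-4 and 48.6 and 60.02 CPM in KO basal, while WT held 59.3, 65.4 and 59.4 CPM after IL-4 and 49.0 and 57.7 CPM in basal libraries. Ndufc1, a small subunit of the membrane arm, had 170.5, 116.3 and 84.3 CPM in KO after IL-4 and 98.0 and 131.1 CPM in KO basal, against 113.5, 115.2 and 152.7 CPM in WT after IL-4 and 192.1 and 289.2 CPM in WT basal (log2 1.03 ± 0.42, adjusted p = 0.239). Neither passed. The median interaction over the members was 0.22, against 0.01 for all genes, with 36 of 45 positive. It was 0.48 in the N module, 0.49 in the proximal membrane arm, 0.19 in the Q module and 0.06 in the distal membrane arm.

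The assembly factors were low in level, at 5.55 to 33.8 CPM per kb. Their summed level was 97 to 114 CPM in KO after IL-4 and 141 to 147 CPM in WT after IL-4. In basal libraries it was 127 to 140 CPM in KO and 154 to 211 CPM in WT. Much of the gap after IL-4 came from Ndufaf4, whose values are given above. Of the 8 factors, 6 had a negative log2 fold change between genotypes after IL-4 and 2 a positive one. Ndufaf2, a paralog of Ndufa12 that binds late assembly intermediates, had 10.5 and 8.4 CPM in KO basal, against 22.3 and 38.8 CPM in WT basal (log2 fold change -1.69 ± 0.47 (SE), adjusted p = 0.0578), and did not pass. After IL-4 it had 10.4, 9.9 and 23.2 CPM in KO, against 13.9, 31.0 and 24.7 CPM in WT, and the groups overlapped. Ndufaf1, a partner of Ecsit and Acad9 in the assembly of the membrane arm, had 6.8, 9.7 and 7.6 CPM in KO after IL-4, 6.9, 7.8 and 6.9 CPM in WT after IL-4, 10.6 and 5.0 CPM in KO basal and 14.4 and 9.7 CPM in WT basal. Ndufaf3, which works with Ndufaf4, had 7.1, 7.5 and 7.2 CPM in KO after IL-4, 12.4, 6.6 and 10.8 CPM in WT after IL-4, 9.5 and 5.5 CPM in KO basal and 11.1 and 12.3 CPM in WT basal. Ndufaf1 and Ndufaf3 overlapped between the genotypes after IL-4, and antisense genes overlap exons of Ndufaf2 and Ndufaf3.

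Ndufaf5, which hydroxylates an arginine of Ndufs7, had 1.9, 5.2 and 4.2 CPM in KO after IL-4, 5.6, 4.7 and 8.9 CPM in WT after IL-4, 5.6 and 6.2 CPM in KO basal and 6.8 and 15.6 CPM in WT basal. Ndufaf6, needed early in the assembly of the membrane arm, had 10.7, 4.0 and 3.9 CPM in KO after IL-4, 6.6, 5.1 and 7.8 CPM in WT after IL-4, 4.2 and 6.9 CPM in KO basal and 4.3 and 16.6 CPM in WT basal. Ndufaf7, a methyltransferase, had 18.6, 9.4 and 6.9 CPM in KO after IL-4, 9.6, 8.4 and 9.6 CPM in WT after IL-4, 10.1 and 12.1 CPM in KO basal and 8.3 and 14.8 CPM in WT basal. For Ndufaf5 and Ndufaf6, WT basal replicate 2 was the highest library, and for Ndufaf7 it was KO IL-4 replicate 1. Apart from Ndufaf8 after IL-4 in WT, no factor passed in edgeR in the 5 contrasts. At an unadjusted p under 0.05, 1 of 8 was lower for genotype in either condition and 2 of 8 for IL-4 in KO. Of all 11614 genes tested, 806 (genotype after IL-4), 1036 (basal genotype) and 1261 (IL-4 in KO) were lower at that threshold.

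The 7 mitochondrially encoded subunits form the proton pumps of the membrane arm. In edgeR none of the 7 passed between genotypes, with 1 at an unadjusted p under 0.05 in each condition, and their median log2 fold change was 0.05 after IL-4 and -0.19 basal. In KO, mt-Nd3 fell after IL-4 (log2 -0.97, adjusted p = 0.00761), and it was the 1 call in this list over the 5 contrasts. Their summed level was 19410, 5174 and 6644 CPM in KO after IL-4, 9217, 7360 and 11647 CPM in WT after IL-4, 8424 and 9704 CPM in KO basal, and 8265 and 12002 CPM in WT basal. On this sum KO IL-4 replicate 1 was the highest and KO IL-4 replicate 2 the lowest, and every other group lay inside that range. Of 14 further genes of complex I assembly, 13 were tested and none passed in edgeR in the 5 contrasts, with at most 2 at an unadjusted p under 0.05, with a basal genotype median of -0.24 and a range of -1.11 to 0.39.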

How the data were processed

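RNA of 10 libraries from sorted mouse peritoneal cavity macrophages was measured by polyA RNA sequencing. The authors deposited raw read counts per gene, in 1 table for the series. STAR, HTSeq and mm10 are named, with no versions or roles, per the submitters' processing notes. The strand setting and annotation are not given in the sources used here, so reads of the 17 members overlapped by exons of an antisense gene, the 3 overlapped on their own strand and the 11 with annotated pseudogene copies (at least 95% identity over 100 bases) are uncertain. Depth was 8762403 to 15024073 counts per library.

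Counts were used as deposited. Identifiers were matched to GENCODE M21 (420 of 22165 had no symbol). In edgeR 4.0.16 (R 4.3.3), filterByExpr (minimum count 10, minimum total 15) left 11614 genes. TMM factors and a robust quasi-likelihood fit of 4 group means gave 6 residual degrees of freedom and a biological coefficient of variation of 28.4%. Tests were two-sided, with Benjamini-Hochberg adjustment over all genes and a threshold of 0.05. CPM values are TMM-scaled, and levels between genes are divided by the principal transcript's length. SE is the absolute log2 fold change over the square root of F. The fit was also run on simulated data, with changes set only in KO after IL-4. Only the genotype contrast after IL-4 was read there, so that run does not cover the contrasts with basal libraries.

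Alternatives were DESeq2 1.42.0, other scalings, no filter, a replicate block, each library left out and, chosen after seeing the data, a length trend removed (loess span 0.5) and limma 3.58.1 voom with sample weights. Members and lists were chosen with earlier results of these data known. Named were members past the threshold, the 3 with the smallest p in each contrast, the 3 highest and 3 lowest in level, and every assembly factor and Ndufa4-family gene; others are said to be chosen after their values were seen. Promoters came from RefSeq. Some genes are not reported here by name, 1 of them a member that was kept in every fit and count and left out of the figures. Figures used matplotlib 3.10.9.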

Additional observations from a re-analysis of the deposited data

Results flagged for a closer look

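Ndufs4 was the single member whose IL-4 effect differed between the genotypes by a test of the difference itself, with an interaction of log2 2.33 (adjusted p = 0.0160, edgeR quasi-likelihood test). In KO it had 97.3, 139.5 and 171.4 CPM after IL-4 and 98.7 and 85.3 CPM in basal libraries. In WT it had 90.0, 111.7 and 132.7 CPM after IL-4 and 216.8 and 539.6 CPM in basal libraries. The WT basal libraries set this gene apart, replicate 2 more than replicate 1, and B cell markers also summed lower in the WT basal libraries (256 and 431 CPM) than in the KO basal libraries (1671 and 2019 CPM). Their part in the result was not tested.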

How the results depend on the processing

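Signs of genes were followed over the 17 alternatives only in contrasts where the gene passed or was among the members with the smallest p. None of these signs changed, and the signs of other named fold changes were not followed. Subunit medians changed sign in 2 contrasts with the length trend removed. The cause of each change below was not tested. For KO against WT basal, the count of members called lower was 1 with RLE factors, library totals or the length trend removed, 9 without the filter and with DESeq2, and 4 with limma voom. With the length trend removed, the subunit median was -0.20 (basal genotype), -0.18 (IL-4 in WT), 0.0017 in place of -0.20 (genotype after IL-4) and 0.075 in place of -0.09 (IL-4 in KO). For IL-4 in WT, 4 members were called with the replicate block, 11 with DESeq2 and 4 with the length trend removed. For IL-4 in KO, 2 were called lower with library totals and 1 higher without the filter. After IL-4, 1 was called lower in KO without the filter and with DESeq2, and the interaction was called higher for 2 without the filter. Library totals moved the median of all genes by 0.15 (basal genotype), 0.07 (IL-4 in WT), -0.10 (IL-4 in KO) and -0.18 (interaction).

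Leaving out each library gave 0 to 7 members lower in KO basal, 1 to 8 lower after IL-4 in WT, 0 to 2 lower after IL-4 in KO, 0 to 2 with a higher interaction and 0 for genotype after IL-4. Subunit medians then ran from -0.34 to -0.08 (genotype after IL-4), -0.60 to -0.41 (basal genotype), -0.57 to -0.27 (IL-4 in WT), -0.22 to -0.03 (IL-4 in KO) and 0.12 to 0.38 (interaction). A group left with 1 library took its spread from the remaining groups.

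Libraries of the same number did not deviate together: correlations were 0.0026, -0.081 and -0.021 between genotypes after IL-4, -0.031 between basal genotypes, -0.033 and -0.0098 between treatments in KO, and 0.062 and 0.043 between treatments in WT. They were taken to share only a number. With the replicate block, Ndufb10 (adjusted p = 0.0549), Ndufa4 (0.124) and Ndufaf8 (0.105) missed the threshold for IL-4 in WT, and Ndufa6 (0.0906) for basal genotype. With 2 libraries in each basal group and a 28.4% coefficient of variation, differences that did not pass may be real or not, which was not detectable at this number of libraries.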

Other observations

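The other respiratory complexes, measured from lists of their nuclear subunits, were called in some contrasts. Between KO and WT basal libraries, the ATP synthase gene Atp5o fell (log2 -1.23, adjusted p = 0.0459, edgeR), 1 of 15 tested in its list (6.67%, where 1.53% of all genes were called lower). After IL-4 in WT, 3 of 15 ATP synthase genes fell (20%, where 2.8% of all genes and 15.6% of the Nduf genes were called lower): Atp5k (log2 -1.13, adjusted p = 0.0153), Atp5c1, the gamma subunit (log2 -2.10, adjusted p = 0.0472), and Atp5e, the epsilon subunit (log2 -0.83, adjusted p = 0.0480). Sdhd, a membrane anchor of complex II, fell in the same contrast (log2 -1.41, adjusted p = 0.0125), 1 of 8 tested (12.5%). None of the 8 complex III or 10 complex IV genes tested passed in these contrasts in edgeR, with 3 complex III genes at an unadjusted p under 0.05 in each contrast, and 2 (basal genotype) and 3 (IL-4 in WT) complex IV genes.

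Median log2 fold changes between KO and WT basal libraries were -0.19 for complex II, -0.47 for complex III, -0.40 for complex IV and -0.68 for ATP synthase, against -0.54 for the Nduf genes and -0.02 for all genes. After IL-4 they were -0.18, -0.26, -0.28 and -0.19 in the same order, against -0.20 for the Nduf genes. Summed ATP synthase levels were 1706 and 1649 CPM in KO basal, against 2341 and 3289 CPM in WT basal. The summed level of complex II was 241 and 246 CPM in KO basal, against 245 and 284 CPM in WT basal.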
